A study of Mus musculus with 19 samples.

Results

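The 10 genes described here are the core of the BCL2 family, whose proteins decide at the mitochondrion whether a lymphocyte survives. They were taken by symbol (Bcl2, Bcl2l1, Mcl1, Bax, Bak1, Bcl2l11, Bad, Bid, Bbc3 and Pmaip1) from the 24982 genes of a table of RNA-seq counts, and all 10 were found and passed the filter on low counts that left 11464 genes to test. The libraries were made from regulatory T cells (Tregs), CD4+ T cells that restrain immune responses and that carried green fluorescent protein under control of Foxp3, the transcription factor that defines them. All mice were Foxp3DTR, a strain in which Foxp3 also drives the receptor for diphtheria toxin, and the methods for the RNA-seq name no toxin treatment. CD4+ FoxP3-GFP+ cells were sorted by surface CD44, an adhesion receptor that rises on activated and memory T cells, into CD44high and CD44low Tregs.

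The 4 groups were CD44high Tregs from uninjured mice (n = 4), CD44low Tregs from uninjured mice (n = 5), CD44high Tregs from injured mice (n = 4) and CD44low Tregs from injured mice (n = 6). Cells came from the axillary, brachial and inguinal lymph nodes, which drain the site of injury. Injured mice were taken 7 days after a burn made with water at 90 °C for 9 s over 20% of the body surface, and uninjured mice had a sham procedure. Mice were 8 to 16 weeks old, and RNA came from 50000 cells per sample. The labels do not say whether a sample was 1 mouse or a pool, so p-values measure the spread between these samples, which may in part be technical. Among the CD44low samples from injured mice, 3 have a plain number (1, 2 and 5) and 3 carry a second number (1_2, 4_2 and 5_2), which the labels do not explain.

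Library totals lay between 5582234 and 9433610 counts, with a median of 6723163. Levels are given as CPM, counts scaled to a common library size with TMM factors, and changes as log2 fold changes from edgeR's quasi-likelihood test, with p-values adjusted by Benjamini-Hochberg over all 11464 genes. A gene was called at an adjusted p under 0.05. The sort was visible in the RNA of its own marker. Cd44 was at 595 ± 37.5 CPM (SD, n = 4) in CD44high and 133 ± 16.1 CPM (SD, n = 5) in CD44low Tregs of uninjured mice. Foxp3 was present in every library, between 47.7 and 181 CPM, and no comparison between groups called it.

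In this family the anti-apoptotic proteins BCL2, BCL-XL (from Bcl2l1) and MCL1 hold the effectors BAX and BAK1 in check, and the effectors, once free, open pores in the outer mitochondrial membrane. The BH3-only proteins carry the stress signal. BIM (from Bcl2l11) and PUMA (from Bbc3) bind all of the anti-apoptotic proteins, BAD binds BCL2 and BCL-XL, NOXA (from Pmaip1) binds MCL1, and BID links death receptors to the mitochondrion after cleavage by a caspase. In T cells interleukin 2 and interleukin 7 sustain the anti-apoptotic side, the FOXO factors can raise Bcl2l11 and Bbc3, and p53 can raise Bbc3, Pmaip1 and Bax. In Tregs the opposition of MCL1 and BIM is known to set how long the cells live. These proteins are also controlled by turnover and phosphorylation, which RNA levels do not show.

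**Figure D1:**
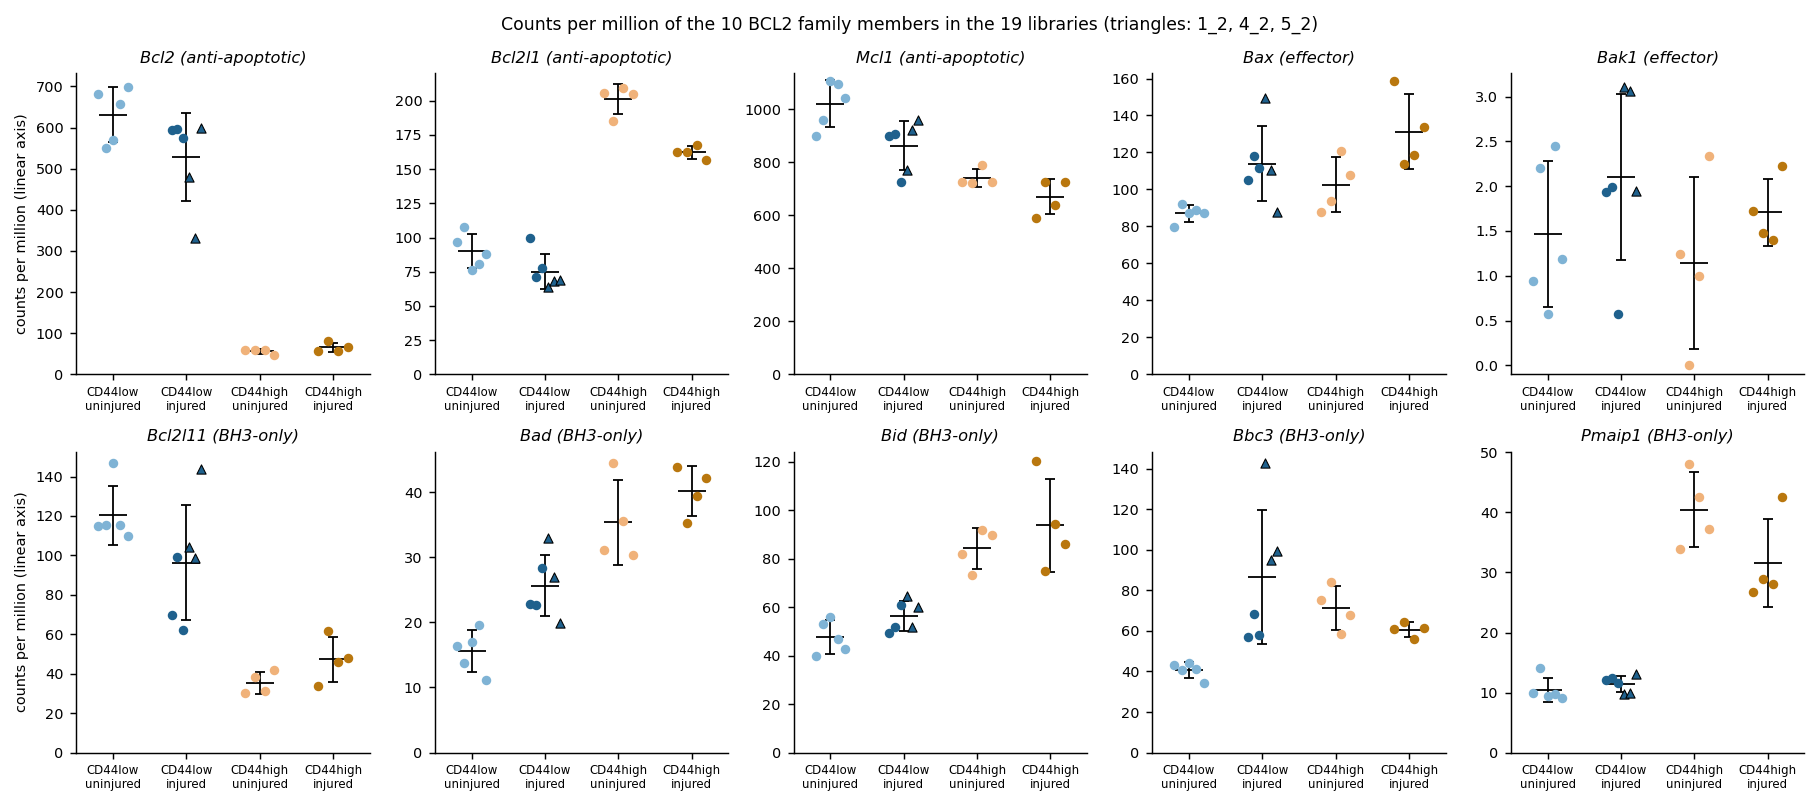
Each panel plots the CPM of 1 gene (y axis, linear, from 0) in each library (points) of the 4 groups (x axis), with the group mean and SD as a bar, and triangles mark the injured CD44low libraries 1_2, 4_2 and 5_2. Bcl2 and Bcl2l11 were lower, and Bcl2l1 and Pmaip1 higher, in every CD44high library than in any CD44low library of the same injury state.

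The first question was how the survival genes differ between the subsets without injury. CD44high Tregs had far less Bcl2 and less Bcl2l11 than CD44low Tregs, slightly less Mcl1, and more Bcl2l1, Pmaip1, Bad, Bid and Bbc3. Of the 10 genes, 8 were called, 5 higher and 3 lower, where 46.1% of all genes tested were called (24.7% higher and 21.3% lower). The same 8 genes did not overlap between the groups, against 40.7% of all genes. The median of the 10 log2 fold changes was 0.52, beside 0.01 over all genes tested, and the median of their sizes was 0.99, beside 0.44. Under a stricter rule, an unadjusted p under 1e-06 with at least 2-fold, 5 of the 10 passed, against 8.3% of all genes.

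Bcl2 showed the largest change of the 10 genes. Its level was 59.2, 59.5, 60.0 and 47.6 CPM in CD44high libraries 2, 3, 4 and 5, and 681, 551, 571, 657 and 699 CPM in CD44low libraries 1 to 5. The groups were far apart, and the spread within each was about as large in proportion (CV 10.6% in both). The fitted change was -3.48 (95% interval -3.83 to -3.13, adjusted p = 5.42e-14), a level 11.2-fold lower in CD44high Tregs, and 36th by p among the 11464 genes. Bcl2 lies on chromosome 1 of GRCm38, from 106538178 to 106714274 on the minus strand in GENCODE vM21. In bulk samples fewer cells that express a gene and less RNA per cell cannot be told apart.

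Bcl2l1 went the other way. It was at 206, 185, 210 and 205 CPM in CD44high libraries and at 96.9, 107, 76.4, 80.9 and 88.1 CPM in CD44low libraries, without overlap, a log2 fold change of 1.16 (SE 0.12, adjusted p = 2.65e-08). Mcl1, by far the most abundant of the 10, was at 742 ± 33.5 CPM (SD, n = 4) in CD44high and 1021 ± 88.7 CPM (SD, n = 5) in CD44low Tregs. Its groups did not overlap either, although the change was only -0.46 (SE 0.10, adjusted p = 0.00048).

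Among the BH3-only genes Bcl2l11 was the only member called lower. It was at 30.1, 38.1, 31.0 and 41.9 CPM in CD44high libraries and at 115, 115, 147, 115 and 110 CPM in CD44low libraries. The highest CD44high library stood far below the lowest CD44low library, and the log2 fold change was -1.77 (SE 0.20, adjusted p = 1.92e-07). Pmaip1 was the mirror image, at 33.9, 48.2, 42.5 and 37.2 CPM in CD44high and 9.85, 14, 9.37, 9.77 and 9.12 CPM in CD44low libraries, a change of 1.95 (SE 0.18, adjusted p = 3.09e-09).

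The other BH3-only genes were higher in CD44high Tregs by less. Bad was at 35.4 ± 6.52 CPM (SD, n = 4) against 15.6 ± 3.23 CPM (SD, n = 5), a log2 fold change of 1.18 (adjusted p = 6.63e-06). Bid was at 84.3 ± 8.43 CPM against 47.7 ± 6.84 CPM, a change of 0.82 (adjusted p = 3.57e-05). Bbc3 was at 75.4, 83.9, 58.4 and 67.7 CPM in CD44high libraries and at 43.3, 40.5, 44.4, 41.4 and 34.4 CPM in CD44low libraries, a change of 0.80 (SE 0.20, adjusted p = 0.0021). All CD44high libraries were above all CD44low libraries for these 3 genes.

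The effectors were not called. Bax was at 102 ± 14.8 CPM (SD, n = 4) in CD44high and 87.1 ± 4.51 CPM (SD, n = 5) in CD44low Tregs, a log2 fold change of 0.24 (95% interval -0.04 to 0.51, adjusted p = 0.16). Bak1 was barely detected, at 1.1 ± 0.96 and 1.47 ± 0.82 CPM, with 32 and 48 counts in the whole groups and 1 CD44high library at 0. A difference in Bak1 was not detectable at this depth, and its interval ran from -1.59 to 0.97.

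The same comparison after injury kept most of the pattern with smaller differences for several genes. Of the 10 genes, 8 were called, 4 higher and 4 lower, where 37.4% of all genes were called (20.1% higher and 17.2% lower). Bcl2l1, Pmaip1, Bid and Bad were again higher and Bcl2, Bcl2l11 and Mcl1 again lower, and these 7 did not overlap between groups, against 24.8% of all genes. Bbc3 was called lower here, the opposite direction from uninjured mice. That call was lost with the second-numbered libraries left out (-0.01, adjusted p = 0.97 by edgeR) and in other fits given below. The median log2 fold change was -0.04, beside 0.00 over all genes tested, and 3 of the 10 passed the stricter rule, against 6% of all genes.

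Bcl2 was at 55.9, 81.9, 57.6 and 66.5 CPM in CD44high libraries 2, 3, 4 and 5 from injured mice. In CD44low libraries from injured mice it ran from 330 CPM through a median of 585 CPM to 599 CPM. The lowest, library 4_2, was still far above every CD44high library, and the log2 fold change was -3.01 (SE 0.16, adjusted p = 6.82e-13), a level 8.07-fold lower. Bcl2l11 was at 33.6, 61.5, 46.0 and 48.2 CPM in CD44high libraries and between 62.2 and 144 CPM, with a median of 99.0 CPM, in CD44low libraries. The gap between these groups was under 1 CPM, and the change was -1.02 (SE 0.19, adjusted p = 0.000178).

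Pmaip1 was at 26.8, 28.9, 28.1 and 42.6 CPM in CD44high libraries and between 9.83 and 13.1 CPM in CD44low libraries, a log2 fold change of 1.46 (SE 0.17, adjusted p = 1.81e-07). Bcl2l1 was at 162 ± 4.66 CPM (SD, n = 4) against 75.0 ± 12.9 CPM (SD, n = 6), a change of 1.11 (adjusted p = 3.6e-08). Mcl1 reached 724 CPM in the highest CD44high and in the lowest CD44low library, a gap of under 1 CPM. The changes were 0.73 for Bid, 0.65 for Bad and -0.37 for Mcl1 (adjusted p = 9.41e-05, 0.0027 and 0.00346 by edgeR). Bax (0.21, adjusted p = 0.21) and Bak1 (-0.29, adjusted p = 0.72) were not called.

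**Figure D2:**
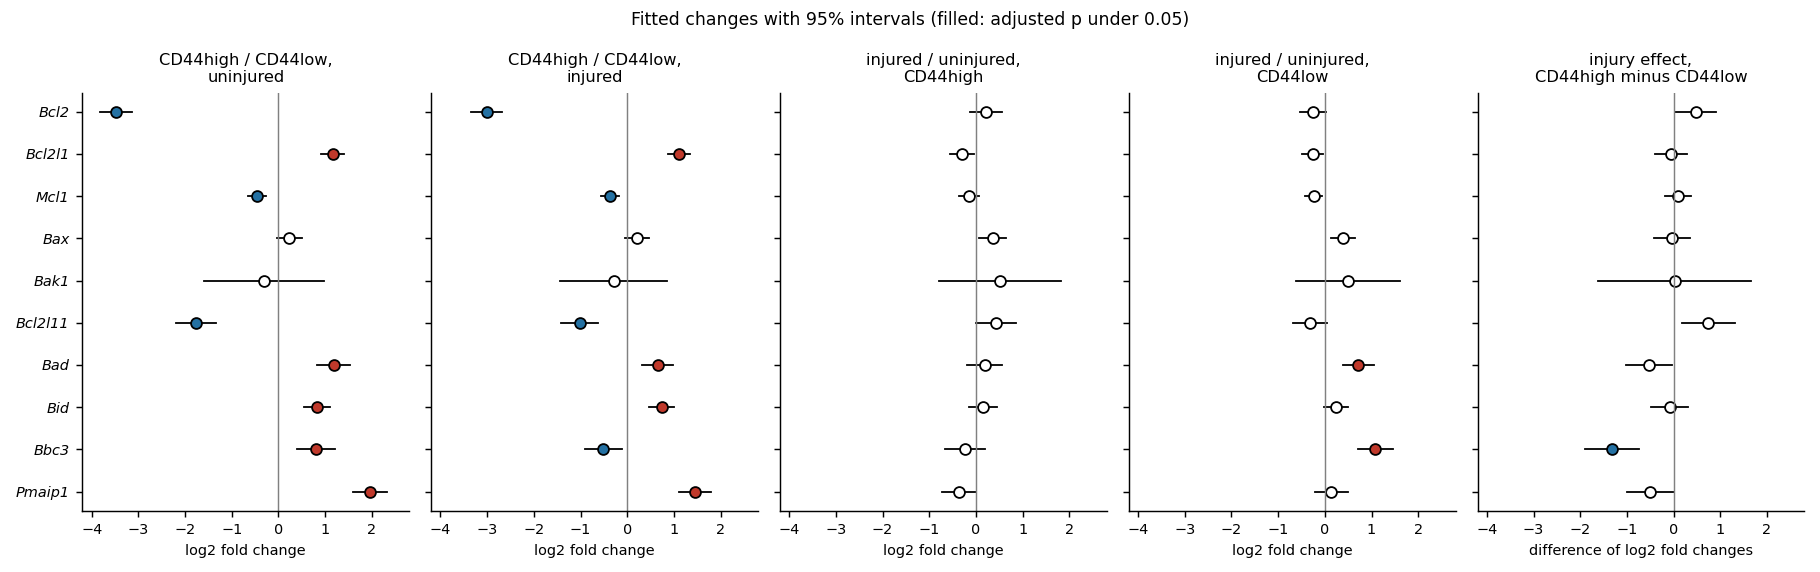
Points are edgeR log2 fold changes (x axis) of each gene (y axis) in the 4 comparisons between groups and, at the right, the difference between the injury effects of the subsets, with 95% intervals as lines and filled points at an adjusted p under 0.05. Bcl2 lies farthest from 0 in both comparisons of the subsets, at -3.48 and -3.01, and Bbc3 alone is filled in the last panel, at -1.32.

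The next question was what injury changed within each subset. In CD44high Tregs none of the 10 genes was called by edgeR, where 2.38% of all genes were called (1.06% higher and 1.33% lower), and DESeq2 called 0 as well. An unadjusted p under 0.05 was found for 2 of the 10 by either tool and for 15.1% of all genes by edgeR, and the stricter rule took 0 of the 10 and 0.148% of all genes. Bax was at 87.5, 93.8, 121 and 108 CPM in uninjured and 159, 114, 119 and 134 CPM in injured CD44high libraries, a log2 fold change of 0.36 (95% interval 0.07 to 0.65, adjusted p = 0.21). Bcl2l1 was at 201 ± 11.1 CPM (SD, n = 4) in uninjured and 162 ± 4.66 CPM (SD, n = 4) in injured mice, a change of -0.31 (95% interval -0.57 to -0.05, adjusted p = 0.22). Bcl2l1 was the only one of the 10 whose groups did not overlap here, against 13.3% of all genes.

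For CD44high Tregs the 95% intervals of the other injury effects differed in width. The interval for Bcl2 ran from -0.12 to 0.55, for Mcl1 from -0.36 to 0.06 and for Bcl2l11 from -0.01 to 0.86. For Pmaip1 it ran from -0.72 to 0.01, for Bbc3 from -0.66 to 0.20, for Bad from -0.18 to 0.55 and for Bid from -0.14 to 0.45. For Bak1, at few counts, it ran from -0.79 to 1.83. A p that missed the threshold does not show that these levels were alike.

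In CD44low Tregs injury raised 2 of the 10 genes, Bbc3 and Bad, and lowered none, where 7.6% of all genes were called (4.24% higher and 3.36% lower). Both BH3-only genes were higher in every injured than in any uninjured CD44low library, where 4.68% of all genes did not overlap in either direction. The stricter rule took 0 of the 10 and 0.122% of all genes. Bad was at 16.4, 13.7, 17.0, 19.5 and 11.1 CPM in uninjured libraries 1 to 5, and in injured libraries at 22.9 (1), 22.7 (2), 28.4 (5), 32.9 (1_2), 27 (4_2) and 19.96 CPM (5_2). The log2 fold change of Bad was 0.71 (SE 0.16, adjusted p = 0.00999). The call was kept by all 8 alternative analyses of this comparison (adjusted p at most 0.0345) and with each library left out (adjusted p at most 0.0258).

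Bbc3 moved more than Bad over all 6 injured libraries, and unevenly. It was at 56.8 (1), 68.5 (2) and 57.8 CPM (5) in injured libraries with a plain number and at 143 (1_2), 94.9 (4_2) and 99.3 CPM (5_2) in those with a second number, against 34.4 to 44.4 CPM in the 5 uninjured libraries. The second-numbered libraries were all above the plain-numbered ones, and 19.3% of all genes tested did not overlap between these sets of 3. The log2 fold change was 1.08 over all 6 libraries (SE 0.18, adjusted p = 0.00144), 0.58 with the second-numbered libraries left out (adjusted p = 0.00495) and 1.48 with the second-numbered libraries alone (adjusted p = 3.85e-06). The increase was therefore present with either set, at sizes that differed by more than 1.5 times, and what sets these libraries apart was not tested. With the second-numbered libraries left out Bbc3 did not move more than Bad, whose log2 fold change was at least 0.66 under every alternative analysis.

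The remaining 8 genes were not called in CD44low Tregs. Bax, at 87.1 ± 4.51 CPM (SD, n = 5) in uninjured and 114 ± 20.3 CPM (SD, n = 6) in injured mice, came closest, with a log2 fold change of 0.39 (SE 0.12, adjusted p = 0.0523). Its adjusted p was 0.0188 by DESeq2 and 0.0405 with RLE factors, so this call depended on the analysis. Mcl1 changed by -0.24 (adjusted p = 0.083), Bcl2l1 by -0.26 (adjusted p = 0.13) and Bcl2 by -0.26 (adjusted p = 0.22). Bcl2l11 changed by -0.32 (adjusted p = 0.24), but by -0.64 (adjusted p = 0.0188) with the second-numbered libraries left out and by -0.45 (adjusted p = 0.047) without library 5_2 alone, where it was highest at 144 CPM.

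Whether injury acted differently in the subsets was tested as the difference between the injury effects, CD44high minus CD44low. Only Bbc3 was called of the 10, where 0.645% of all genes were (0.192% higher and 0.454% lower). Its difference was -1.32 on the log2 scale (SE 0.28, adjusted p = 0.0224), from an effect of -0.23 in CD44high Tregs (55.8 to 64.5 CPM in injured and 58.4 to 83.9 CPM in uninjured libraries) and 1.08 in CD44low Tregs. It was -0.81 (adjusted p = 0.0144) with the second-numbered libraries left out and -1.70 (adjusted p = 6.76e-05) with them alone. It missed the threshold without CD44high uninjured library 3 (-1.24, adjusted p = 0.0591) and without CD44high injured library 4 (-1.28, adjusted p = 0.0614) or 5 (-1.32, adjusted p = 0.0554).

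The change of sign of Bbc3 between the subsets rests on the same libraries. After injury Bbc3 was lower in CD44high than in CD44low Tregs (log2 fold change -0.51, adjusted p = 0.0392), but the groups overlapped. The difference was -0.01 (adjusted p = 0.97) with the second-numbered libraries left out. Leaving out any of the 4 CD44high injured libraries, or 1_2, 4_2 or 5_2, also ended the call, with adjusted p up to 0.116 and the smallest size, -0.31, without 1_2. The call was also missed in a fit of the compared groups alone (-0.53, adjusted p = 0.0861). The replicate block, a fit with the label's number as a term, gave -0.48 (adjusted p = 0.0933).

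The other differences between the injury effects were not called. That of Bcl2l11 was 0.74 (95% interval 0.18 to 1.30, adjusted p = 0.26), from 0.42 in CD44high and -0.32 in CD44low Tregs, and it was called with the second-numbered libraries left out (1.06, adjusted p = 0.0232). The values were 0.47 for Bcl2, -0.53 for Bad and -0.50 for Pmaip1 (adjusted p = 0.40, 0.41 and 0.46 by edgeR). An unadjusted p under 0.05 was reached by 4 of the 10 genes and by 10.9% of all genes tested.

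**Figure D3:**
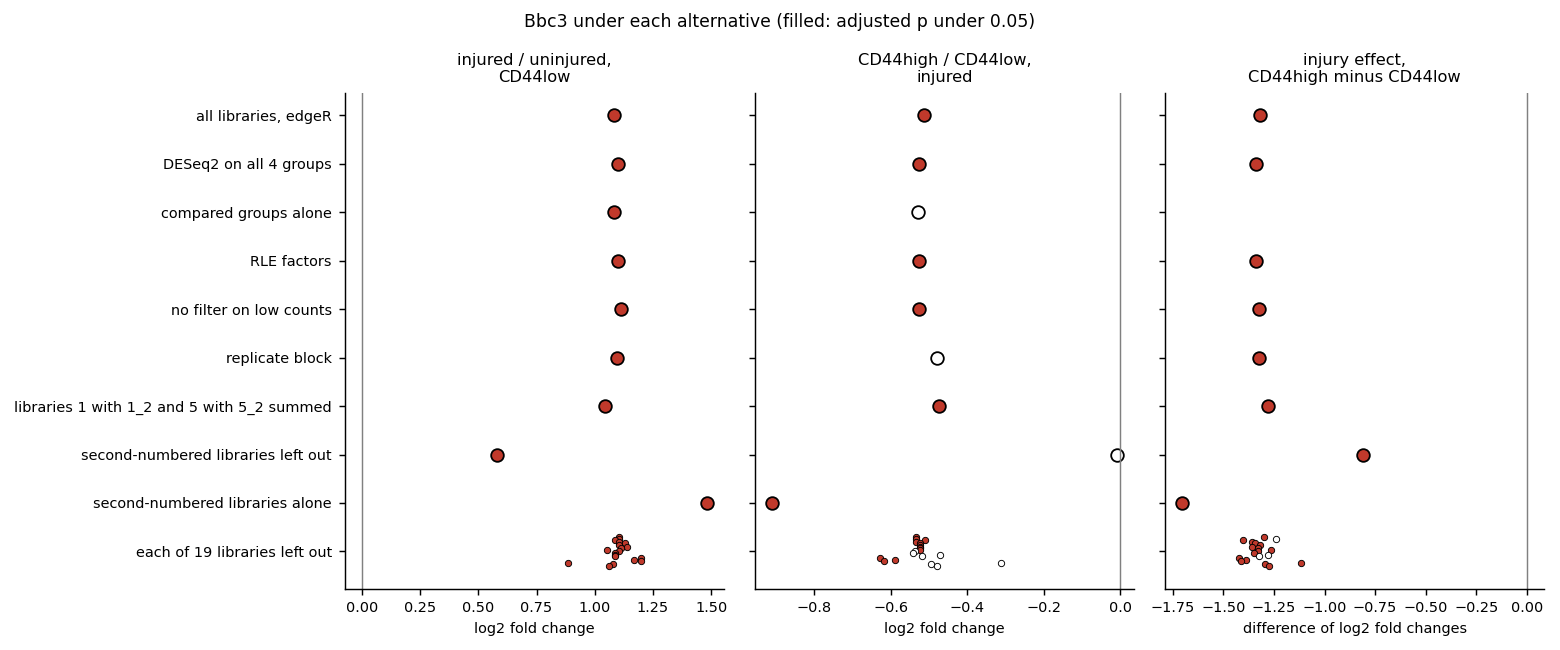
Each point is the log2 fold change of Bbc3 (x axis) under 1 analysis (y axis, with small points for each of the 19 libraries left out in turn) for injury in CD44low Tregs, for CD44high against CD44low Tregs after injury, and for the difference between the injury effects, filled at an adjusted p under 0.05. The injury effect in CD44low Tregs is filled throughout, between 0.58 and 1.48, while the difference of the subsets after injury is at -0.01 with the second-numbered libraries left out.

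The 2 BH3-only genes that the FOXO factors are known to raise, Bcl2l11 and Bbc3, are shown with the sequence before a start site that holds the core of a FOXO site. The letters GTAAACA were searched on both strands in the 250 bases before each RefSeq start (GRCm38.p6) for 9 of the 10 genes, all of which had at least 1 of 15 windows, and 3.17% of 32851 such windows of all genes hold them. The first window of Bcl2l11, at chr2:128125788-128126037 on the plus strand, ends at the base before the gene (128126038 to 128162547 in GENCODE vM21), and its match begins 227 bases before the start. The matching window of Bbc3, number 2 of 3, is at chr7:16310011-16310260 on the plus strand. It lies inside the gene (16308393 to 16318205) before an internal start and overlaps no GENCODE exon. Its match, on the minus strand, begins 167 bases before that start. Capitals mark the match.
Bcl2l11: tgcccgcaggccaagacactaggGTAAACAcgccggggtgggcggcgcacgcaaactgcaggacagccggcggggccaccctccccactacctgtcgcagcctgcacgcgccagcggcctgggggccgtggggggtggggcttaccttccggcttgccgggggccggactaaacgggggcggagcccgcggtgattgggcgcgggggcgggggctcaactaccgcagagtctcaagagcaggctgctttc
Bbc3: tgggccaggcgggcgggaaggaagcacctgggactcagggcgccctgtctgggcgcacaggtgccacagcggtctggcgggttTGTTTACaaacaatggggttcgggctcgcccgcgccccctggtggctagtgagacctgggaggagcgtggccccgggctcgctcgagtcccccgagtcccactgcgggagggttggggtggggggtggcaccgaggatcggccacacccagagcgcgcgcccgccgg
The other windows of Bcl2l11 and Bbc3 and those of the other 7 genes searched held no match. TTCNNNGAA, the core of a STAT5 site, was in none of the 15 windows and in 7.02% of all windows. A match is a string of letters and no measure of binding. Foxo1 itself was lower in CD44high than in CD44low Tregs of uninjured mice, at 604 ± 45.8 CPM (SD, n = 4) against 901 ± 57.7 CPM (SD, n = 5), and fell with injury in CD44low Tregs to 652 ± 71.8 CPM (SD, n = 6), a log2 fold change of -0.47 (adjusted p = 0.00165). Foxo3 was under 6 CPM in every library.

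Levels of different genes were compared per kilobase of exon (CPM per kb, exon union of GENCODE vM21). On this scale Mcl1 made up most of the sum of Bcl2, Bcl2l1 and Mcl1 in every group, 81.2% ± 0.59 (SD, n = 4) in CD44high and 77.0% ± 2.57 (SD, n = 5) in CD44low Tregs of uninjured mice. The sum leaves out the A1 genes, which also encode anti-apoptotic proteins but are not among the 10. Bcl2 made up 17.9% ± 2.07 and Bcl2l1 5.11% ± 1.01 of the sum in CD44low Tregs of uninjured mice, whereas Bcl2l1 made up 16.4% ± 0.69 and Bcl2 2.31% ± 0.24 in CD44high Tregs. These shares depend on the length used, since Bcl2l1 has an exon union of 4586 bases and a longest transcript of 2568. Shares by longest transcript were not computed, and that of Bcl2l1 would be higher. After injury Bcl2 held 17.7% ± 3.42 (SD, n = 6) in CD44low and Bcl2l1 14.9% ± 1.5 (SD, n = 4) in CD44high Tregs.

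The BH3-only RNA was also made up differently. Bbc3 held between 32.5% ± 2.63 (SD, n = 4) in injured CD44high and 48.0% ± 6.80 (SD, n = 6) in injured CD44low Tregs, and Bid held 29.8% ± 4.97 and 19.7% ± 3.58 in the same groups. Such shares depend on the lengths used for each gene. Bcl2l11 held 26.1% ± 1.70 (SD, n = 5) in CD44low but 4.87% ± 0.74 (SD, n = 4) in CD44high Tregs of uninjured mice. Pmaip1 held 6.66% ± 1.27 and 16.3% ± 1.76 in the same groups. In injured CD44low Tregs the share of Bcl2l11 was 14.5% ± 3.06 (SD, n = 6).

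Summed per length, Bcl2, Bcl2l1 and Mcl1 were at 387 ± 23.8 CPM per kb in CD44low and 267 ± 11.5 in CD44high Tregs of uninjured mice, and after injury at 327 ± 30.2 and 238 ± 19.9. The BH3-only genes were at 57.5 ± 5.59 CPM per kb in CD44low Tregs of uninjured mice and at 90.4 ± 6.44 and 88.2 ± 5.09 in CD44high Tregs of uninjured and injured mice. In injured CD44low Tregs they were at 83.0 ± 19.6 (SD, n = 6), from 62.7 to 72.6 in libraries 1, 2 and 5 and from 85.7 to 115 in 1_2, 4_2 and 5_2, with a mean of 67.6 when the latter were left out. The effectors, nearly all Bax, were at 55.9 ± 3.09 and 65.5 ± 9.52 CPM per kb in CD44low and CD44high Tregs of uninjured mice and after injury at 73.1 ± 13.1 and 84.0 ± 12.9. CD44low Tregs of uninjured mice thus held the highest mean of these 3 anti-apoptotic genes and the lowest BH3-only mean of the 4 groups. The sums mix genes that moved in opposite directions, and they were not tested.

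As a description chosen after the values were seen, the sum of the 3 anti-apoptotic genes was divided by the sum of the BH3-only and effector genes. The ratio was 3.42 ± 0.27 (SD, n = 5) in CD44low and 1.72 ± 0.10 (SD, n = 4) in CD44high Tregs of uninjured mice. After injury the same ratio stood at 2.16 ± 0.44 (SD, n = 6) in CD44low and 1.40 ± 0.22 (SD, n = 4) in CD44high Tregs. The lowest uninjured CD44low library (3.08) was above the highest injured CD44low library (2.68), and 5 of the 6 injured CD44low libraries (2.04 to 2.68) were above every CD44high library (at most 1.85). Library 1_2, at 1.38, lay within the range of the CD44high libraries. The ratio depended on which anti-apoptotic genes it held. Those of the A1 group, 4 near-identical copies (Bcl2a1a to Bcl2a1d) between which reads could be split, summed to 92.6 ± 8 CPM per kb (SD, n = 4) in CD44high and 44.1 ± 4.96 (SD, n = 5) in CD44low Tregs of uninjured mice. After injury they summed to 149 ± 14.2 (SD, n = 4) and 63.3 ± 13.9 (SD, n = 6). With them added, also after the values were seen, the ratio was 3.81 ± 0.29 in CD44low and 2.31 ± 0.11 in CD44high Tregs of uninjured mice. After injury it stood at 2.56 ± 0.47 and 2.27 ± 0.28, and the libraries of the subsets overlapped. Without Mcl1 the ratio for CD44low and CD44high Tregs was 0.79 and 0.32 in uninjured and 0.49 and 0.25 in injured mice, and with the A1 genes 1.18 and 0.92 in uninjured and 0.90 and 1.12 in injured mice, where the order of the means turned and the libraries overlapped.

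**Figure D4:**
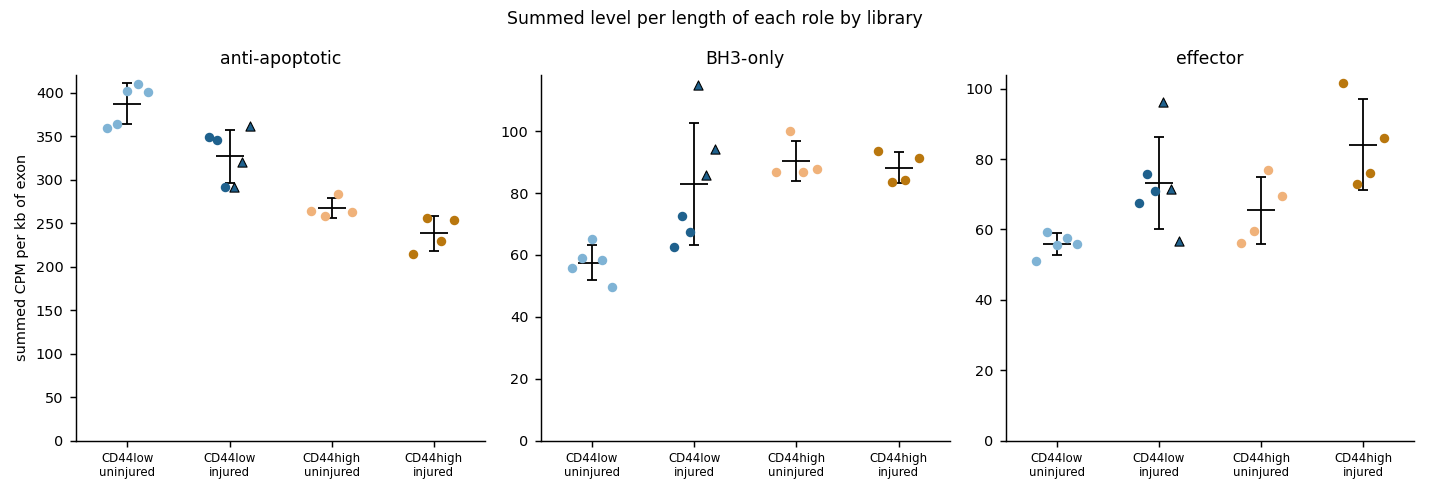
Points are libraries, with the summed level of each role in CPM per kilobase of exon on the y axis (linear, from 0), the 4 groups on the x axis, group mean and SD as bars, and triangles for libraries 1_2, 4_2 and 5_2. CD44low Tregs of uninjured mice are highest for the 3 anti-apoptotic genes of the 10, with a mean of 387, and lowest for the BH3-only genes, with a mean of 57.5.

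The ratios of single pairs did not all point one way. The log2 ratio of Bcl2 to Bcl2l11 in CPM was 2.39 ± 0.29 (SD, n = 5) in CD44low and 0.68 ± 0.37 (SD, n = 4) in CD44high Tregs of uninjured mice, and 2.48 ± 0.59 (SD, n = 6) and 0.48 ± 0.18 (SD, n = 4) in injured mice. The lowest CD44low library (1.74) was above the highest CD44high library (0.97). By contrast the log2 ratio of Mcl1 to Bcl2l11 was higher in CD44high Tregs, at 4.39 ± 0.27 against 3.08 ± 0.15 in uninjured mice and at 3.84 ± 0.24 against 3.21 ± 0.36 in injured mice. Only the uninjured groups were apart, since the injured ones overlapped (3.55 to 4.12 against 2.73 to 3.68).

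The ratios of Mcl1 to Pmaip1 and of Bcl2 to Bax were higher in CD44low Tregs again, and ratios to Bad, Bid and Bbc3 were not computed. The log2 ratio of Mcl1 to Pmaip1 was 6.59 ± 0.32 (SD, n = 5) in CD44low and 4.20 ± 0.22 (SD, n = 4) in CD44high Tregs of uninjured mice. The log2 ratio of Bcl2 to Bax was 2.85 ± 0.21 and -0.85 ± 0.29 in the same groups, and 2.20 ± 0.47 and -1.01 ± 0.42 after injury. Bcl2l1 against Bcl2l11 ran the opposite way, at -0.42 ± 0.33 in CD44low and 2.51 ± 0.28 in CD44high Tregs of uninjured mice. Thus the direction of the balance depended on which pair was read, and these ratios were not tested.

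**Figure D5:**
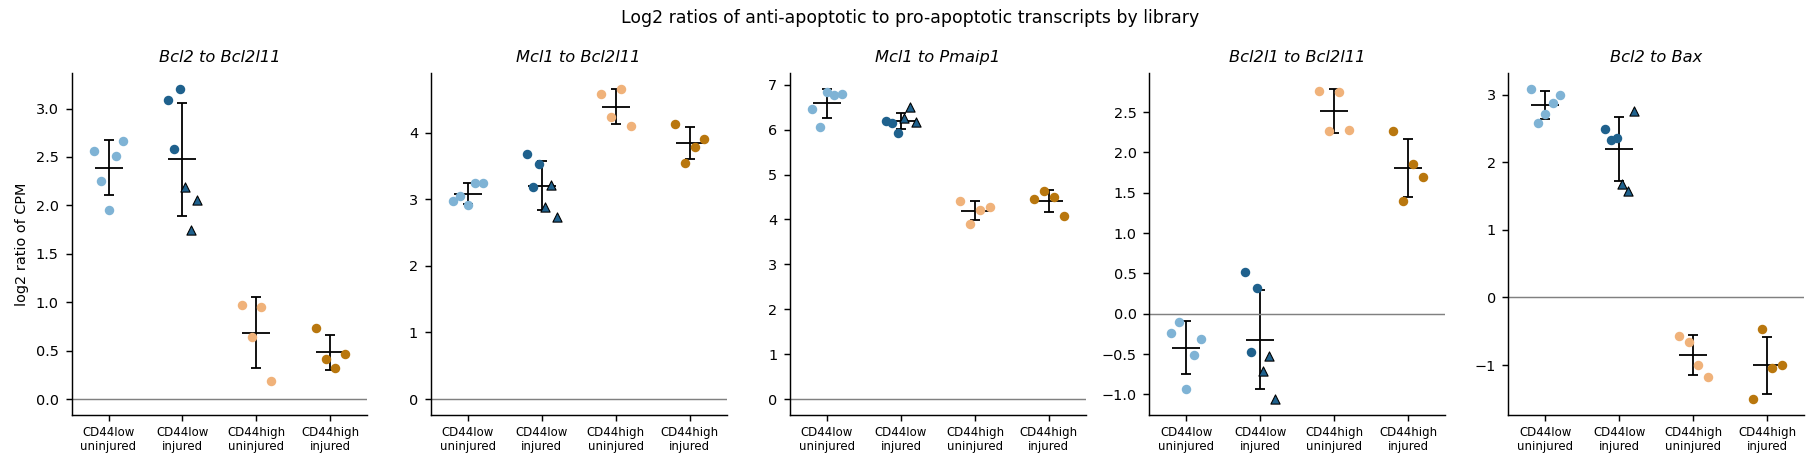
Points are libraries, with the log2 ratio of the CPM of an anti-apoptotic to a pro-apoptotic gene on the y axis and the 4 groups on the x axis, bars for mean and SD, and triangles for libraries 1_2, 4_2 and 5_2. Ratios of Bcl2 to Bcl2l11, Mcl1 to Pmaip1 and Bcl2 to Bax were higher, and those of Mcl1 and Bcl2l1 to Bcl2l11 lower on average, in CD44low Tregs.

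Other genes of the mitochondrial pathway were counted in the same way. Of 16 further BCL2 family genes, 10 could be tested, and in uninjured mice 5 were higher and 0 lower in CD44high Tregs, where 46.1% of all genes were called (24.7% higher). They included Bcl2a1b, an anti-apoptotic A1 gene, with a log2 fold change of 1.03 (adjusted p = 4.1e-06). Bcl2l15 (5.76 against 0.28 CPM) and Bik (3.63 against 0.74 CPM) were at a few counts or none in CD44low libraries of uninjured mice and so could pass the filter on low counts through other groups, and their part in the count of 5 is not read as a result. After injury 3 were higher and 0 lower, where 20.1% of all genes were higher and 37.4% called, and the 3 were Bcl2a1b (1.16), Bcl2a1d (1.83) and Bcl2l15, again near 0 in CD44low Tregs (3.51 against 0.43 CPM). Injury raised Bcl2a1b in CD44high (0.65, adjusted p = 0.0187) and in CD44low Tregs (0.52, adjusted p = 0.0214), and Bcl2a1d in CD44high Tregs (0.97, adjusted p = 0.0493). The A1 genes are near-identical copies, so reads may be split between them and the member named is uncertain.

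Of 5 inhibitors of apoptosis 1 was higher and 2 lower in CD44high Tregs of uninjured mice, beside 46.1% of all genes called, and the same numbers were called in injured mice, beside 37.4%. The higher gene was Birc5 (5.71), which encodes survivin and is also a gene of dividing cells, and the lower were Birc6 (-0.91) and Birc2 (-0.32). After injury Birc5 was higher (4.16) and Birc6 (-0.58) and Birc3 (-0.38) lower, and injury raised Birc5 in CD44low Tregs (1.15, adjusted p = 0.0311). Birc5 was at 99.7 CPM in CD44high and 1.88 CPM in CD44low Tregs of uninjured mice, and at 75.9 and 4.24 CPM after injury. It could pass the filter on low counts through other groups, so its calls, which rest on few counts in CD44low Tregs, are not read as a result.

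Of 9 genes of the death receptor pathway, 1 was higher, 3 were lower and 5 were not called in CD44high Tregs, both in uninjured mice (median -0.11, beside 46.1% of all genes called) and in injured mice (median -0.36, beside 37.4%). In uninjured mice Fas (-0.79) and Casp8 (-0.57) were lower, and Tradd, an adaptor of the TNF receptor, was higher (0.71). Injury raised Fas in CD44high Tregs (0.48, adjusted p = 0.0405) and Fasl, its ligand, in CD44low Tregs (1.05, adjusted p = 0.0245). Of 4 genes of MCL1 turnover, 2 were lower and 0 higher in CD44high Tregs in both states, beside 21.3% and 17.2% of all genes lower. They were the ligases Huwe1 (-0.75) and Fbxw7 (-0.67) in uninjured mice, and Huwe1 (-1.07) and the deubiquitinase Usp9x (-0.91) in injured mice.

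Cytokines that signal through the gamma chain feed into the family. Of 12 genes of the gamma chain cytokine pathway, 5 were higher and 4 lower in CD44high Tregs of uninjured mice, and 0 were higher and 5 lower after injury. Of all genes 24.7% were higher and 21.3% lower between the subsets in uninjured mice, and 20.1% and 17.2% in injured mice. Il7r, the interleukin 7 receptor, was at 344 ± 29.3 CPM (SD, n = 4) in CD44high and 135 ± 20.9 CPM (SD, n = 5) in CD44low Tregs of uninjured mice. After injury it was at 355 ± 37.3 CPM (SD, n = 4) and 328 ± 83.6 CPM (SD, n = 6), a difference that was not called (0.11, adjusted p = 0.58). Il7r rose with injury in CD44low Tregs (1.28, adjusted p = 1.72e-05), as did Il2rb, the beta chain of the interleukin 2 receptor (0.41, adjusted p = 0.00467).

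The differences between the injury effects were -1.23 for Il7r (adjusted p = 0.00417), -0.61 for Il2rb (adjusted p = 0.0157) and -0.85 for Cish, a feedback inhibitor induced by STAT5 (adjusted p = 0.028), which was named for this difference after its value was seen. Cish fell with injury in CD44high Tregs by 1.00 on the log2 scale, from 494 ± 34.5 to 248 ± 41.5 CPM (SD, n = 4 each), and so did the kinase gene Pim1, by 1.06 (adjusted p = 0.0063). Jak1 was lower in CD44high Tregs of uninjured (-0.67) and injured mice (-0.65), as were Stat5a (-0.82 and -0.60) and Il2ra (-0.62 and -0.82). Jak3 was higher in uninjured mice (0.62) and not called in injured mice (0.18, adjusted p = 0.16).

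Of 16 genes of FOXO and p53 input, 14 could be tested. In uninjured mice 7 were higher and 5 lower in CD44high Tregs, where 46.1% of all genes were called. After injury 6 were higher and 4 lower, where 37.4% of all genes were called. Trp73 was at 7.30 against 0 CPM in CD44high and CD44low Tregs of uninjured mice, and at 2.05 against 0.07 CPM after injury. Trp73 could pass the filter on low counts through the CD44high libraries, and any part of it in these counts is not read as a result. Cdkn1a, which encodes the cell cycle inhibitor p21, was at 16.8 ± 4.44 CPM (SD, n = 4) against 2.06 ± 0.71 CPM (SD, n = 5), a log2 fold change of 3.01 (adjusted p = 5.45e-08). The p53 target Ccng1 was higher in both states (1.06 and 0.81) and so was Sesn2 (1.57 and 1.67), while Trp53 itself was lower in both (-0.40 and -0.46). Injury raised Sesn1 (0.61) and lowered Foxo1 and Foxo3 (-0.47 and -1.20) in CD44low Tregs, 3 of the 14 where 7.6% of all genes were called.

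Several measures of the samples moved with these comparisons. The 8 genes of cell division were all higher in CD44high Tregs in both states (24.7% and 20.1% of all genes were), with a summed level of 1019 ± 115 CPM (SD, n = 4) against 199 ± 12.8 CPM (SD, n = 5) in uninjured mice and 760 ± 42.4 against 225 ± 17.1 CPM in injured mice. The most abundant was Mcm5 (315 CPM in CD44high Tregs of uninjured mice), and Ccna2 (4.10) and Cdk1 (4.49) were among them. In CD44low Tregs of uninjured mice Ccnb1, Cdk1 and Mki67 were at 1.71, 2.38 and 2.70 CPM. They could pass the filter on low counts through the CD44high libraries, and their part in the count of 8 is not read as a result. Injury raised Tyms in CD44low Tregs (1.09), and the difference between the injury effects was called for Ccna2 (-1.10, adjusted p = 0.0245). The part of dividing cells in the differences of the BCL2 family was not tested.

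Markers of macrophages and dendritic cells were also higher in CD44high Tregs, 7 of 7 tested in uninjured mice (24.7% of all genes were higher) and 3 of 7 in injured mice (20.1%). Of the 7, Itgam, Itgax, Adgre1 and Flt3 were under 1 CPM in CD44low Tregs of uninjured mice and could pass the filter through other groups. Their summed level was 293 ± 44.1 CPM against 125 ± 7.88 CPM in uninjured mice and 320 ± 63.7 against 185 ± 42.7 CPM in injured mice. Injury raised 2 of the 7 in CD44low Tregs, where Bbc3 and Bad rose and 4.24% of all genes were higher. Cst3 was the most abundant of them in every group (191 CPM in CD44high Tregs of uninjured mice), Lyz2 was at 75.2 CPM, and Fcgr1 was at 0 in all CD44low libraries of uninjured mice. In the injured CD44low libraries their sum was 172 to 264 CPM in 1, 2 and 5 and 137 to 187 CPM in 1_2, 4_2 and 5_2. The part of such cells in the differences of Bbc3 and the other genes was not tested.

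Several lists held markers of other cells. The 6 neutrophil markers summed to at most 1.69 CPM in any uninjured and 30.1 CPM in any injured library. Group means in uninjured and injured mice were 0.17 and 8.98 CPM in CD44high and 0.40 and 6.97 CPM in CD44low Tregs. The mean of 6.97 CPM rested mostly on CD44low library 2, at 30.1 CPM, where the next highest, library 5, was at 7.13 CPM. S100a9 was called with injury in both subsets, with Mpo, Elane and Ly6g near 0. S100a9 was at most 0.34 CPM in any uninjured library. It could pass the filter on low counts through the injured libraries, and its calls are not read as a result. Of the 7 B cell markers 1 was higher in CD44high Tregs in each state, where 24.7% (uninjured) and 20.1% (injured) of all genes were higher. Their sum lay between 115 and 206 CPM in the group means, led by Cd79b. Of the CD8 T and NK cell markers, 1 of 5 tested was higher in uninjured mice, where 24.7% of all genes were. In injured mice 1 was higher and 1 lower, where 20.1% and 17.2% of all genes were. Klrb1c, at 3.71 against 0.29 CPM in uninjured mice, could pass the filter through other groups, and any part of it in these counts is not read as a result. The sums lay between 83.3 and 91.8 CPM in the group means, led by Cd8b1. Stromal and vessel markers were mostly Pecam1, which T cells also express. Their sum was 64.5 ± 6.76 CPM in CD44high and 202 ± 13.8 CPM in CD44low Tregs of uninjured mice, and 101 ± 16.6 and 194 ± 34.4 CPM after injury. The part of these cells in the differences of the BCL2 family was not tested. Of the red cell markers only Alas2 was detected, at about 1 CPM or less in the group means.

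Among all genes tested, the log2 CPM of Igf2r (Pearson r = 0.99), St8sia6 (0.99) and Vps37b (0.98) ran closest to Bcl2 over the 19 libraries. Those closest to Bcl2l1 were Incenp (0.98), Slc39a6 (0.97) and Fgl2 (0.97). Those closest to Bcl2l11 were Aff3, Cd2ap and Nrip1 (all 0.96), and those closest to Mcl1 were Wdr82 (0.92), Crim1 (0.91) and Zbtb11os1 (0.90). The libraries fall into 2 sorted subsets, and no coefficient within a subset was computed.

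For some of the 10 genes other transcripts share the locus. In GENCODE vM21 Gpr137 overlaps 20.5% of the exon length of Bad on the opposite strand, Bcl2l13 17.7% of that of Bid and Ggnbp1 25.5% of that of Bak1. Gpr137 was at 9.71 CPM in CD44high and 6.31 CPM in CD44low Tregs of uninjured mice and at 12.8 and 8.62 CPM after injury, so its means were higher in CD44high Tregs and after injury. Bcl2l13 was at 64.0 and 74.7 CPM in uninjured and 74.7 and 75.1 CPM in injured mice, and Ggnbp1 was under 1 CPM. Gm45808 overlaps 12.2% of Bax on the same strand and D630008O14Rik 6.09% of Bcl2 on the opposite strand, and the count table holds neither. The setting for strand in the counting was not found in the labels or methods, so reads in the shared stretches cannot be assigned with certainty. No other GENCODE gene shares exons with Bcl2l1, Mcl1, Bcl2l11, Bbc3 or Pmaip1.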

How the data were processed

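Counts per gene had been made by the authors with STAR (2.5 in the submitters' processing notes, which also list bcl2fastq 2.18, mm9 and mm10 without a role) through VIPER, from SMART-Seq v4 cDNA and Swift 2S libraries. The deposited values were raw counts without normalization or pooling, and their annotation was not found in the sources used here. The table's capital symbols were respelled from RefSeq and a table of gene names, which matched 24827 of 24982.

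In R 4.3.3, edgeR 4.0.16 fitted 4 group means and no covariate after TMM scaling, keeping genes with enough libraries above a minimum count of 10. Tests were two-sided and were checked on simulated counts. The 95% intervals use the quasi-likelihood degrees of freedom. Log2 CPM used a prior count of 2. Alternatives were DESeq2 1.42.0, RLE factors, only the compared groups, no filter, a replicate block, other sets of the injured CD44low libraries, other call rules and each library left out.

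The 10 genes and the gene lists were chosen with earlier results of these data known. Named genes were all 10 in each comparison and, per list and direction, up to 2 called genes of smallest p, with genes that check the sort and the 3 genes most like Bcl2, Bcl2l1, Bcl2l11 and Mcl1. No 2 libraries of a group agreed within sampling noise (chi-square per gene at least 4.96). Same-numbered CD44high and CD44low libraries did not deviate together (correlations -0.05 to 0.17 in 8 pairs), so the numbers were not taken as pairs. Some named genes and 1 list are not reported here. Reads carry no molecular identifiers.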

Additional observations from a re-analysis of the deposited data

Results flagged for a closer look

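Of 72 sets of 4 to 6 libraries (10 genes, 5 ratios and 3 sums in 4 groups), 6 held a library far from the rest by Dixon's ratio, and chance flags about 5% of such sets. In CD44high Tregs of uninjured mice these were Bcl2 in library 5 (47.6 CPM, others 59.2 to 60.0), Mcl1 in library 4 (792 CPM, others 721 to 727) and the BH3-only sum in library 3 (100.004 CPM per kb, others 86.7 to 87.9). In CD44low Tregs of uninjured mice they were Bcl2l11 in library 3 (147 CPM, others 110 to 115) and Pmaip1 in library 2 (14 CPM, others 9.12 to 9.85). In CD44high Tregs of injured mice Pmaip1 stood apart in library 5 (42.6 CPM, others 26.8 to 28.9).

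The injury effect differed between the subsets, by the test of the difference itself in edgeR (CD44high minus CD44low, log2 scale), for Bbc3 (-1.32), and among the other named genes for Il7r (-1.23), Ccna2 (-1.10), Cish (-0.85) and Il2rb (-0.61).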

How the results depend on the processing

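The 8 calls between the subsets in uninjured mice and the 0 calls of injury in CD44high Tregs kept their number under all other tests, factors, filters and library sets tried, and with each library left out. For the subsets in injured mice 7 or 8 were called. Requiring 2-fold left 5, 4 and 1 calls for the subsets in uninjured mice, the subsets in injured mice and injury in CD44low Tregs, and an unadjusted p under 1e-06 with 2-fold left 5, 3 and 0. For injury in CD44low Tregs 4 genes were called with the second-numbered libraries left out, and 2 to 4 with each library left out (4 without 5_2). For the difference between injury effects 2 were called with the second-numbered libraries left out, 0 to 1 with each library left out and 4 at an unadjusted p under 0.05. Whether the numbers pair the samples is not shown, and the replicate block left 8, 7, 0, 2 and 1 calls in the 5 comparisons. Other calls appeared on leaving out 1 library: Bax between the subsets in injured mice without CD44low library 1_2 (0.30, adjusted p = 0.0448 by edgeR) and Bcl2l1 with injury in CD44low Tregs without injured library 1 (-0.34, adjusted p = 0.0464).

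Signs turned for uncalled values alone. Between the subsets in injured mice Bak1 became 0.078 (replicate block) and 0.18 (second-numbered left out), and in uninjured mice it ran from -0.97 to 0.068 with each library left out. Differences between injury effects turned for Bcl2l1 (0.10, second-numbered alone; -0.13 to 0.038 with each library left out), Bax (0.0020, replicate block; -0.15 to 0.063) and Bak1 (-0.00044, RLE factors; -0.027, libraries 1 and 5 summed with 1_2 and 5_2; -0.36, second-numbered alone; -0.38 to 0.66), and for Bid (-0.24 to 0.0074). The cause was not tested.

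With the longest transcript as length, sums in CPM per kb were 303, 422 and 268 for the anti-apoptotic genes (CD44high uninjured, CD44low uninjured, CD44high injured). In the order CD44high and CD44low of uninjured, then of injured mice, they were 119, 80.1, 120 and 111 for the BH3-only and 93.6, 79.8, 120.1 and 104 for the effector genes. These differ by construction.

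Over all genes, injury in CD44high Tregs called 273, but 474 by DESeq2, 601 with the groups alone, 476 with numbers summed and 581 with the second-numbered left out. In CD44low Tregs it called 871, but 1451 by DESeq2, 463 with the groups alone, 440 with the replicate block, 1748 with the second-numbered left out and 445 with them alone. Single libraries moved these counts too. Injury in CD44low Tregs called 1893 without injured library 5_2, 510 without uninjured library 1, 547 without injured 1_2 and 554 without injured 1. In CD44high Tregs it called 152, 153, 158, 167 and 170 without injured 5 and 2 and uninjured 3, 2 and 5. The shares of all genes given beside the members rest on these counts. The difference between injury effects called 74, but 217 by DESeq2, 314 with the second-numbered left out, 136 with them alone and 43 without injured CD44high library 5.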
